A study of Mus musculus with 9 samples.

Results

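The cholesterol synthesis and SREBP genes are 28 mouse genes that encode enzymes on the way from acetyl-CoA to cholesterol, the proteins that switch those enzymes on and off, and proteins that move sterols inside and out of cells. They were chosen from a list of gene symbols, and a probe was taken as belonging to a member when the RefSeq accession given for it in the array files led to one of those symbols. All 28 genes were found, on 38 of the 39364 probes used, among 32450 genes or identifiers on the array. A gene was tested when its probe lay well above background on every array of at least 1 group. All 28 passed, and 20443 genes were tested in all. The list does not hold every enzyme or regulator of the pathway.

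Sorted mouse cells were profiled on 9 Agilent arrays in 1 colour, with 3 arrays for each of 3 groups, from total RNA. Male primordial germ cells (PGCs) were taken at E13.5 from the genital ridges of embryos of MCH x C57BL6/J background that carry the Oct4ΔPE-GFP transgene, a reporter of germ cells, and were sorted as live single GFP-positive cells. Max knockdown cells were male embryonic stem (ES) cells of the line VV3, strain 129SV, which carry a Venus reporter under the promoter of Vasa (the gene Ddx4). They received siRNA against Max, and Vasa-positive cells were sorted after 3 days of culture. Control cells were VV3 cells that received the non-silencing AllStars siRNA and were sorted after 3 days as live single cells. The ES groups come from 1 cell line, and the siRNA and the reporter gate changed together. PGCs differ from both ES groups in strain, source and reporter as well as in cell type. The study compared the knockdown cells with normal ES cells and with PGCs formed in the embryo.

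Cholesterol is built from acetyl-CoA. The first enzymes make mevalonate and from it the isoprenoid farnesyl diphosphate, a branch point that also feeds dolichol, ubiquinone and protein prenylation. Squalene synthase commits farnesyl diphosphate to sterols, squalene is closed to lanosterol, and a series of demethylation, isomerisation and reduction steps turns lanosterol into cholesterol. The genes of these enzymes are switched on by the sterol regulatory element binding proteins (SREBPs). When sterols are plentiful, the Insig proteins hold the SREBPs and their escort Scap in the endoplasmic reticulum. When sterols are scarce, Scap carries the SREBPs to the Golgi, where proteases release the part that enters the nucleus. Oxysterols act the other way, through liver X receptors, and switch on exporters such as Abca1 and Abcg1. In Drosophila and zebrafish the mevalonate pathway is needed for germ cells to migrate to the gonad, and in the fetal testis the steroid-making cells use cholesterol for androgens. Max is the partner of Myc proteins on the E-box CACGTG, and in ES cells it is also part of complexes that keep germ cell genes silent.

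Between 58.2% and 67.6% of the spots of an array lay well above background, no spot was saturated, and the number of arrays limits the precision. Values are log2 signals relative to the 75th percentile of the same array, so 0 is the level of that percentile, and levels of different genes are not compared. Control arrays 1 and 2 and knockdown arrays 1 and 2 shared slide 1, control array 3 and knockdown array 4 shared slide 2, and PGCs were on slides 3 and 4 with no ES sample. A slide effect can be separated from the knockdown, while in comparisons with PGCs it can be taken only as a random block. Across the members, array 1 was the lowest of its group for 20 of 28 genes in the knockdown and for 19 of 28 in the control, whereas in PGCs no array was lowest for more than 11 of 28. The target Max was lower by a log2 difference of -1.96 ± 0.14 (SE, adjusted p = 2.93e-05) in knockdown cells than in control cells, and Ddx4, whose promoter drives the sorted reporter, was higher by 2.64 ± 0.13 (SE, adjusted p = 6.67e-06). Of 8 germ cell markers, 5 rose and none fell after knockdown, and in PGCs 7 rose and Tfap2c fell (-1.90). All 8 ES markers were above background on every control and PGC array. Of these, Sox2 rose (0.57), Nanog fell (-0.97) and 6 did not pass after knockdown, while 3 rose and 4 fell in PGCs, Tdgf1 furthest (-5.98). Of all genes tested, 18.2% rose and 21.9% fell after knockdown, and 43.2% rose and 32.4% fell in PGCs.

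Markers of other cells also moved with the groups. The summed level of a marker list is given on a linear scale, as a multiple of the 75th percentile of the array. The 8 fibroblast markers summed to 1.20 to 1.31 in knockdown cells and 3.65 to 5.74 in control cells, and 5 of the 6 tested were called lower in the knockdown. In PGCs they summed to 1.11 to 1.39, and Postn and Twist2 were above background on no PGC array. In knockdown cells 3 of the 8 were above background on no array, and in control cells 2 were. Of the 6 tested, 5 were called lower and 1 higher in PGCs than in control cells. Against knockdown cells 2 were lower and 2 higher. The 6 markers of steroid-making cells on the array, of 7 listed, summed to 3.49 to 6.46 in PGCs, 1.30 to 2.22 in knockdown cells and 1.22 to 2.53 in control cells, with all 6 above background on each PGC array. Hsd17b3 was above background on no ES array, and Hsd3b1 on no control array. Of these 6, 5 were called higher in PGCs than in control cells, where 43.2% of all genes were. Against knockdown cells 5 were higher, where 44.9% of all genes were. None was called lower, and after knockdown none was called. The 8 markers of gonadal support cells summed to 6.81 to 14.5 in PGCs, 3.78 to 4.75 in knockdown cells and 3.70 to 4.43 in control cells. Amh and Cst9 were above background on no ES array and on every PGC array. Of the 8, 4 were called higher, 1 lower and 3 did not pass in PGCs against control cells. After knockdown 1 rose and 2 fell. The 7 markers of endothelium and blood summed to 2.84 to 4.68 in PGCs, 2.39 to 3.07 in knockdown cells and 2.20 to 2.74 in control cells. Cdh5 and Ptprc were above background on no ES array. In PGCs 3 of the 7 were above background on every array and 1 on none. Of the 4 tested, 2 were called higher and 1 lower in PGCs than in control cells. Against knockdown cells 1 was higher and 2 were lower, and after knockdown 2 rose. The part of such other cells in the results was not tested. In such bulk samples, fewer cells of a type and less RNA per cell cannot be told apart.

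After Max knockdown most of the 28 genes were lower. By limma's test with adjustment over all genes tested (adjusted p under 0.05), 18 fell, 3 rose and 7 did not pass. Over all 20443 genes 40.1% were called in this comparison, 21.9% lower and 18.2% higher. The median log2 difference was -0.58 over the members and -0.07 over all genes tested. Each part of the list held genes that fell, but Acat2 and Hmgcs1, of the first steps, did not pass. The falls were modest: the largest was that of Mvd, at 2.15-fold, and 13 of the 18 reached 1.5-fold. The genes that rose were Abca1, Hsd17b7 and Insig2, of which only Abca1 passed 1.5-fold. The arrays of the groups did not overlap for 19 members that were lower and 4 that were higher, where 30.7% and 23.4% of all genes did so. Within slide 1 the median of the members was -0.53 and within slide 2 it was -0.58, against -0.07 and -0.06 for all genes. Scaling on the spike-in probes without a slide term left 1 member up and none down among 1001 genes called, and the median at -0.57. The 75th percentile lay 0.59 to 0.78 below the spike-in probes on slide 1 and 1.65 to 1.83 below them on slide 2 (log2), and with slide as a block the same scaling gave 2 up and 16 down.

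In PGCs the falls reached 10.5-fold, for Pmvk, among genes above background in them. Against control cells 21 of the 28 fell, 4 rose (Abca1, Hsd17b7, Fdft1 and Npc1) and 3 did not pass (Sqle, Scap and Srebf1), while 75.6% of all genes were called, 32.4% lower and 43.2% higher. The median log2 difference was -0.74 over the members and 0.18 over all genes. Groups did not overlap for 22 members that were lower and 5 that were higher, against 33.5% and 45% of all genes. Against Max knockdown cells 18 members were lower, 5 were higher (Fdps, Fdft1, Hsd17b7, Srebf1 and Npc1) and 5 did not pass, where 76.3% of all genes were called, 31.4% lower and 44.9% higher. The median was -0.44, beside 0.21 for all genes, and groups did not overlap for 19 members below and 6 above, against 32.4% and 46.2%. These comparisons share the PGC arrays, and both comparisons with control cells share the control arrays. With slide as a random block the counts were 3 up and 20 down against control cells, and 5 up and 17 down against knockdown cells. Such a block cannot take out an offset between PGC and ES slides, since no slide held both. Scaling on spike-in probes moved the median of all genes to -0.78 against control cells and -0.75 against knockdown cells, and those of the members to -1.70 and -1.41. No member was then called higher in PGCs, and relative to all genes the members stayed lower. The 75th percentile minus the spike-in probes was -1.39 on slide 3, and -2.35 and -2.18 on slide 4 (log2). The ES slides differed in this too. PGCs shared no slide with ES cells, so the shift under spike-in scaling cannot be told apart from slide.

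**Figure D1:**
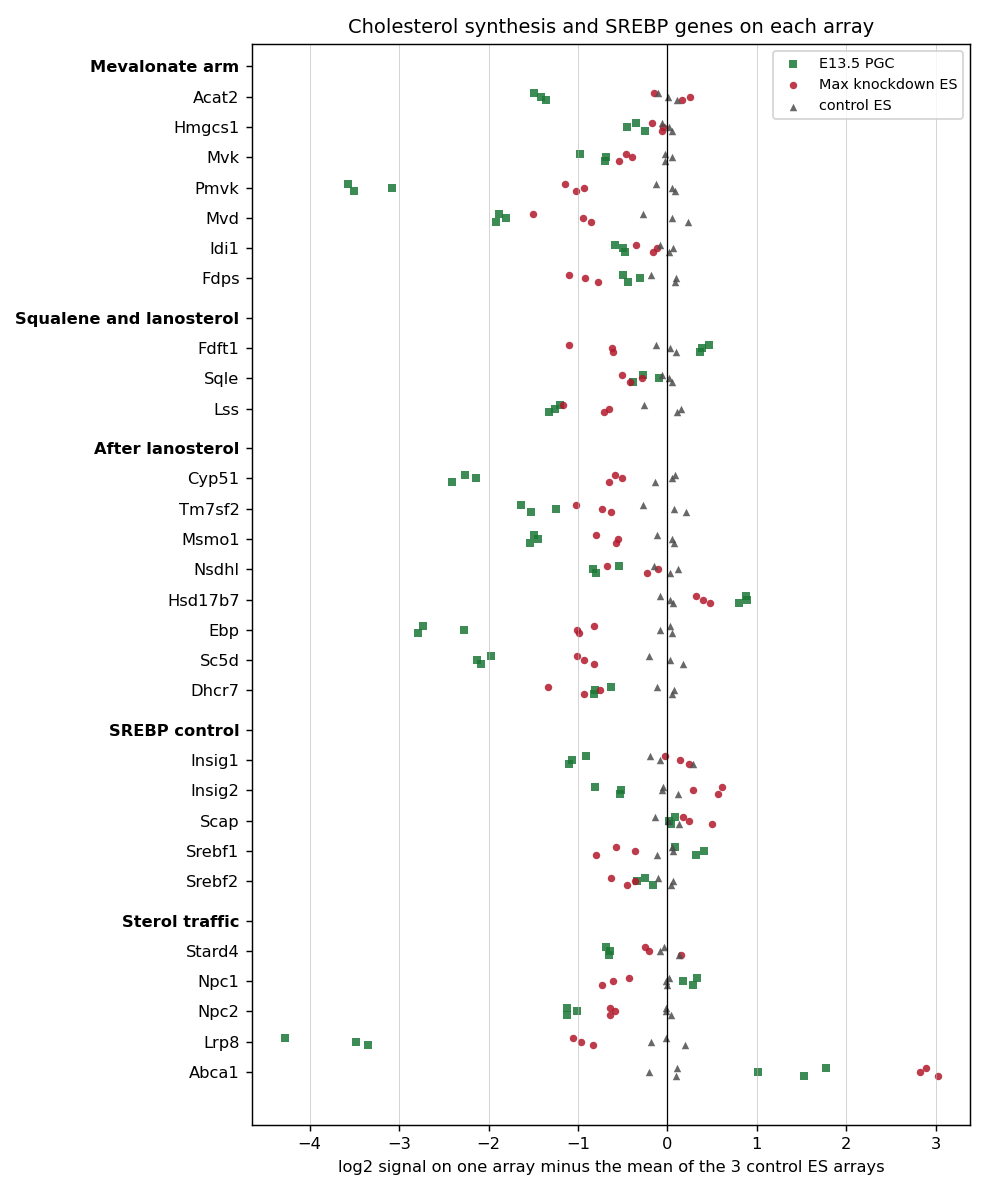
Level of each of the 28 genes on each array, as log2 signal minus the mean of the 3 control ES arrays, with genes in rows by their place in the pathway and 1 point per array (squares PGC, circles Max knockdown, triangles control). Most PGC and knockdown points lie left of 0, and Abca1 lies right of it on all 6 PGC and knockdown arrays.

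**Figure D2:**
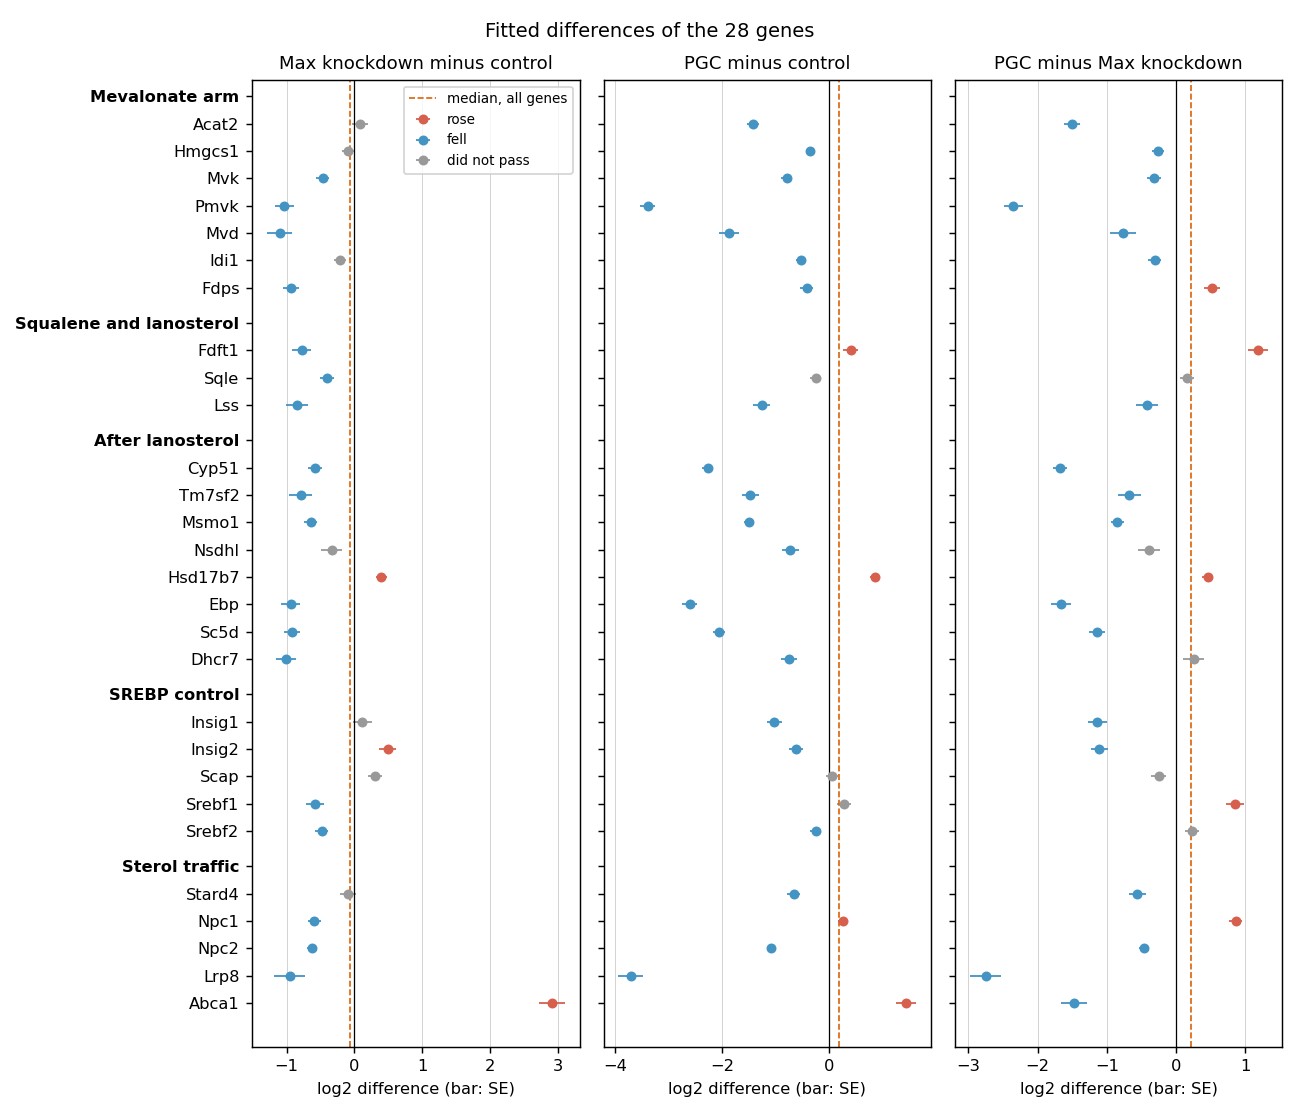
Fitted log2 differences with their standard errors in the 3 comparisons, blue for genes called lower, red for genes called higher and grey for genes that did not pass, with the median of all genes tested as a dashed line (-0.07, 0.18 and 0.21). In the knockdown 18 genes are blue and 3 red. The red points of Fdft1, Hsd17b7 and Npc1 against control, and of Fdps, Hsd17b7, Srebf1 and Npc1 against knockdown, change sign under spike-in scaling.

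The promoters of the members were searched for 3 motifs on both strands, none of which contains another: the E-box CACGTG that Max binds with its partners, the sterol regulatory element TCACNCCAC, and the CCAAT box CCAAT, which often lies beside it. A promoter here is the window from 250 bases before to 50 after a start of a gene in RefSeq (GRCm38.p6). That start need not be the outer end of the gene. The table held 33 promoters of 23 members, and had no entry for Npc1, Fdps, Stard4, Fdft1 and Sqle. CACGTG was in 7 of 33 promoters (21.2%), against 7.2% of 32851 promoters and 9.6% of the 14583 promoters of tested genes. Windows of 1 gene can overlap, and each window counts in these shares. The 2 windows of Scap overlap and hold the same CACGTG, so the 7 promoters hold it for 6 of the 23 members. The genes were Abca1, Dhcr7, Hsd17b7, Insig1, Sc5d and Scap, of which 2 rose, 2 fell and 2 did not pass after knockdown. TCACNCCAC was in 1 of 33 (3.0%, against 1.2% of either set), that of Hmgcs1. Sterol regulatory elements with other letters were not searched for. CCAAT was in 20 of 33 (60.6%), against 37.4% of all promoters and 37.5% of those of tested genes. The median GC content was 62.3% in the member promoters, 52.7% in all and 60.0% in those of tested genes. A match is a description of the letters and shows no binding.

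The 5 promoters below include those of the 2 genes with CACGTG that rose after knockdown and of a gene with CACGTG that fell. The others are of Mvd, which fell most, and of Hmgcs1, the only searched member with TCACNCCAC. All are written 5′ to 3′ on the gene's strand, with the motifs in capitals (CACGTG, TCACNCCAC, and CCAAT or its reverse ATTGG). Abca1 (chr4:53159846-53160145), Hsd17b7 (chr1:169969156-169969455), Sc5d (chr9:42264251-42264550) and Mvd (chr8:122443373-122443672) lie on the minus strand, and Hmgcs1 (chr13:119690101-119690400) on the plus strand. Positions are counted from the start on which each window was built, which for Abca1 and Hsd17b7 is not the outer end of the gene. CACGTG begins 147 bases before that start in Abca1, 143 before it in Hsd17b7 and 98 before it in Sc5d. The sterol regulatory element begins 137 before it in Hmgcs1.
Abca1: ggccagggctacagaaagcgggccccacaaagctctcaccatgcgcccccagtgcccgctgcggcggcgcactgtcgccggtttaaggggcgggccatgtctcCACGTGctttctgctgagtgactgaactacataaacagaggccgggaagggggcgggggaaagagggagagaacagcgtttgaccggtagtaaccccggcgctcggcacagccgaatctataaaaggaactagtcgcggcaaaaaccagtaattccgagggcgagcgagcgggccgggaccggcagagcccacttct
Hsd17b7: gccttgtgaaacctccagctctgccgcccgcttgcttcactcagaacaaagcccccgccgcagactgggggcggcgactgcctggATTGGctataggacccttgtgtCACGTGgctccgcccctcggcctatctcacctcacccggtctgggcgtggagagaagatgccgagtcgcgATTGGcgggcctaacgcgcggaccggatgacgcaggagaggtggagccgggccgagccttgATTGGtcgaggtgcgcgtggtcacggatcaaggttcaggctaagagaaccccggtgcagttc
Sc5d: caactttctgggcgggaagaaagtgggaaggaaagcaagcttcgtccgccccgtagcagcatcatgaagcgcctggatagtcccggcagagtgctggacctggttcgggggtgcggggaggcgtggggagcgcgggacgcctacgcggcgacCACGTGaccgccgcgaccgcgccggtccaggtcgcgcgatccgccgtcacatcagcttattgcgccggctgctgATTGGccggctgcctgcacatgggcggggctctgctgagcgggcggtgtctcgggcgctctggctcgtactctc
Mvd: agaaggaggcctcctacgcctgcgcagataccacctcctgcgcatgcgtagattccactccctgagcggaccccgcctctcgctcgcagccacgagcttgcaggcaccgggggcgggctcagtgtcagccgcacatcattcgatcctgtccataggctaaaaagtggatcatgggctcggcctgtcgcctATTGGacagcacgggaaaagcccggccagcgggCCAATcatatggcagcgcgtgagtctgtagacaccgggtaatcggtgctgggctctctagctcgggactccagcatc
Hmgcs1: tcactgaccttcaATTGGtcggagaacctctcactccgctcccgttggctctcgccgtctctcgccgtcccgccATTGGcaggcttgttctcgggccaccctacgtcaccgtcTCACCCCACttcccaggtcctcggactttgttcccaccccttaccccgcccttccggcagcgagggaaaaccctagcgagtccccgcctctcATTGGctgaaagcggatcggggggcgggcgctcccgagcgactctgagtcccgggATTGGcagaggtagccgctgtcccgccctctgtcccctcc

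In the mevalonate arm, 4 of 7 genes fell after knockdown and none rose, while all 7 fell in PGCs against control cells. Of all genes tested, 21.9% fell after knockdown and 32.4% in PGCs. Pmvk and Mvd had the largest differences in both, and in the knockdown the first steps had the smallest. Acat2, the cytosolic thiolase that joins acetyl-CoA units, had log2 signals of -3.60, -3.52 and -3.47 in PGCs and -2.27, -1.86 and -1.95 in Max knockdown cells, against -2.22, -2.11 and -2.01 in control cells. The ES groups overlapped and PGCs lay below both. The difference was -1.42 ± 0.12 (SE, adjusted p = 7.54e-06) from control cells, -1.51 from knockdown cells, and 0.09 ± 0.12 (SE, adjusted p = 0.604) between the ES groups. Hmgcs1, the synthase before mevalonate, had 4.27, 4.16 and 4.36 in PGCs and 4.45, 4.57 and 4.56 in Max knockdown cells, against 4.55, 4.64 and 4.66 in control cells. The ES groups overlapped, and the knockdown difference of -0.09 ± 0.09 (SE, adjusted p = 0.43) did not pass and turned to 0.03 under quantile normalization. PGCs were lower than control cells by a small -0.35 ± 0.09 (SE, adjusted p = 0.00481). Mvk, mevalonate kinase, had 2.49, 2.78 and 2.76 in PGCs and 3.00, 3.07 and 2.92 in Max knockdown cells, against 3.44, 3.52 and 3.43 in control cells. No groups overlapped, with control cells highest and PGCs lowest. The differences were -0.47 ± 0.10 (SE, adjusted p = 0.0062) after knockdown and -0.79 ± 0.10 (SE, adjusted p = 9.81e-05) in PGCs.

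Pmvk, which adds the next phosphate, showed the largest fall among the enzymes in PGCs. Its log2 signals were 1.21, 1.71 and 1.28 in PGCs and 3.64, 3.85 and 3.77 in Max knockdown cells, against 4.66, 4.84 and 4.87 in control cells. The groups were far apart, with PGCs lowest and knockdown cells between. It was 2.05-fold lower after knockdown (-1.03 ± 0.14 (SE, adjusted p = 0.000682)), and 10.5-fold lower in PGCs than in control cells (-3.39 ± 0.14 (SE, adjusted p = 1.25e-07)). PGCs were also below knockdown cells, by -2.35 ± 0.14 (SE, adjusted p = 9.65e-07). Mvd, the decarboxylase that yields isopentenyl diphosphate, had 1.12, 1.20 and 1.09 in PGCs and 1.5, 2.07 and 2.15 in Max knockdown cells, against 2.73, 3.06 and 3.23 in control cells. Control cells were highest and PGCs lowest, without overlap, and knockdown array 1 lay below the other 2 of its group. The differences were -1.10 ± 0.19 (SE, adjusted p = 0.00212) after knockdown and -1.87 ± 0.19 (SE, adjusted p = 2.27e-05) in PGCs. Idi1, the isomerase of isopentenyl diphosphate, changed little: -0.21 after knockdown, which did not pass, and -0.52 ± 0.09 (SE, adjusted p = 0.000836) in PGCs. Fdps, farnesyl diphosphate synthase, had 4.55, 4.74 and 4.61 in PGCs and 3.94, 4.13 and 4.27 in Max knockdown cells, against 4.86, 5.15 and 5.14 in control cells. Here knockdown cells, not PGCs, were lowest, and no groups overlapped. The differences were -0.93 ± 0.12 (SE, adjusted p = 0.000528) after knockdown and -0.42 ± 0.12 (SE, adjusted p = 0.0117) in PGCs against control cells. PGCs were above knockdown cells by 0.52 ± 0.12 (SE, adjusted p = 0.00364), which spike-in scaling turned to -0.45. Between PGCs and knockdown cells the small differences of Hmgcs1 (-0.26), Mvk (-0.32) and Idi1 (-0.31) passed. That of Mvk lost its call without knockdown array 2 (-0.28), that of Idi1 without the same array (-0.26), and that of Hmgcs1 without knockdown array 2 (-0.24), knockdown array 4 (-0.25) or PGC array 2 (-0.21).

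The 3 genes from farnesyl diphosphate to lanosterol all fell after knockdown, where 21.9% of all genes fell, and went different ways in PGCs. Fdft1, squalene synthase, had log2 signals of 3.79, 3.72 and 3.69 in PGCs and 2.23, 2.71 and 2.72 in Max knockdown cells, against 3.20, 3.36 and 3.43 in control cells. Knockdown cells were lowest and PGCs highest, without overlap, and knockdown array 1 lay apart from the other 2. It fell by a log2 difference of -0.78 ± 0.14 (SE, adjusted p = 0.00277) after knockdown and was higher in PGCs by 0.40 ± 0.14 (SE, adjusted p = 0.0267), a direction that spike-in scaling turned (-0.55). That rise lost its call without control array 1 (0.34), control array 2 (0.42), PGC array 1 (0.37) or PGC array 2 (0.41), and with slide as a random block. Against knockdown cells PGCs were 2.27-fold higher (1.18 ± 0.14 (SE, adjusted p = 6.6e-05)), and spike-in scaling left 0.21, which did not pass. Sqle, squalene epoxidase, had 3.89, 4.07 and 3.78 in PGCs and 3.65, 3.87 and 3.75 in Max knockdown cells, against 4.09, 4.18 and 4.21 in control cells. Knockdown cells lay below control cells without overlap, and PGCs overlapped the knockdown. The difference was -0.40 ± 0.10 (SE, adjusted p = 0.0134) after knockdown. That of PGCs from control cells, -0.25 ± 0.10 (SE, adjusted p = 0.0504), was just outside the threshold and passed without PGC array 2 (-0.33). PGCs minus knockdown cells gave 0.15, which did not pass and turned to -0.06 under quantile normalization and -0.81 under spike-in scaling. Lss, which closes squalene epoxide to lanosterol, had 0.44, 0.39 and 0.31 in PGCs and 0.47, 0.99 and 0.94 in Max knockdown cells, against 1.38, 1.79 and 1.75 in control cells. Control cells were highest without overlap, and the lowest knockdown array, array 1, lay just above the PGCs. The differences were -0.84 ± 0.16 (SE, adjusted p = 0.00379) after knockdown and -1.26 ± 0.16 (SE, adjusted p = 0.000108) in PGCs. PGCs minus knockdown cells gave -0.42 ± 0.16 (SE, adjusted p = 0.0404), a call that was lost without knockdown array 2 (-0.32), knockdown array 4 (-0.35), or PGC array 1 (-0.45), 2 (-0.42) or 3 (-0.39).

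Of the 8 enzymes after lanosterol, 6 fell and 1 rose after knockdown, and 7 fell and 1 rose in PGCs against control cells. The same gene, Hsd17b7, was the exception both times. Over all genes 21.9% fell and 18.2% rose after knockdown, and 32.4% fell and 43.2% rose in PGCs. Cyp51, the sterol demethylase that acts on lanosterol, had log2 signals of -1.68, -1.56 and -1.82 in PGCs and -0.01, 0.07 and -0.08 in Max knockdown cells, against 0.66, 0.63 and 0.45 in control cells. The 3 groups did not overlap, and PGCs lay far below the ES groups. The differences were -0.58 ± 0.10 (SE, adjusted p = 0.00231) after knockdown and -2.27 ± 0.10 (SE, adjusted p = 1.86e-07) in PGCs, a 4.82-fold lower level. Tm7sf2, a sterol reductase of the endoplasmic reticulum, had 0.48, 0.87 and 0.59 in PGCs and 1.10, 1.39 and 1.49 in Max knockdown cells, against 1.85, 2.19 and 2.33 in control cells. Control cells were highest and PGCs lowest without overlap. The differences were -0.79 ± 0.16 (SE, adjusted p = 0.00547) after knockdown and -1.47 ± 0.16 (SE, adjusted p = 4.54e-05) in PGCs. Msmo1, the methylsterol monooxygenase, had 3.46, 3.50 and 3.42 in PGCs and 4.16, 4.40 and 4.38 in Max knockdown cells, against 4.84, 5.01 and 5.02 in control cells. The arrays of each group were close together and the groups apart. The differences were -0.64 ± 0.10 (SE, adjusted p = 0.00111) after knockdown and -1.49 ± 0.10 (SE, adjusted p = 1.4e-06) in PGCs. Nsdhl, a dehydrogenase of the same demethylation, had -0.03, -0.31 and -0.29 in PGCs and -0.16, 0.41 and 0.29 in Max knockdown cells, against 0.36, 0.64 and 0.55 in control cells. The ES groups overlapped, since knockdown array 2 lay above control array 1. Its knockdown difference, -0.34 ± 0.16 (SE, adjusted p = 0.127), did not pass, and that in PGCs was -0.73 ± 0.16 (SE, adjusted p = 0.0028). PGCs minus knockdown cells gave -0.39, just outside the threshold, and passed without knockdown array 1 (-0.56) or PGC array 1 (-0.48).

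Hsd17b7, the ketosteroid reductase of the demethylation complex, had -0.40, -0.38 and -0.47 in PGCs and -0.95, -0.87 and -0.79 in Max knockdown cells, against -1.36, -1.25 and -1.21 in control cells. PGCs were highest and control cells lowest, without overlap. It rose by a log2 difference of 0.40 ± 0.08 (SE, adjusted p = 0.00531) after knockdown and by 0.85 ± 0.08 (SE, adjusted p = 1.73e-05) in PGCs, and spike-in scaling turned that of PGCs to -0.10. PGCs were above knockdown cells by 0.46 ± 0.08 (SE, adjusted p = 0.000869), which spike-in scaling turned to -0.51. Ebp, the sterol isomerase, had 1.07, 1.54 and 1.02 in PGCs and 2.99, 2.80 and 2.82 in Max knockdown cells, against 3.84, 3.73 and 3.86 in control cells. The groups were far apart, and PGC array 2 was above the other 2 of its group. The level was 1.92-fold lower after knockdown (-0.94 ± 0.14 (SE, adjusted p = 0.00113)), and 6.06-fold lower in PGCs than in control cells (-2.60 ± 0.14 (SE, adjusted p = 5.26e-07)). Sc5d, a sterol desaturase, had -0.59, -0.75 and -0.71 in PGCs and 0.37, 0.45 and 0.56 in Max knockdown cells, against 1.17, 1.41 and 1.56 in control cells. Control cells were highest and PGCs lowest, without overlap. The differences were -0.92 ± 0.11 (SE, adjusted p = 0.000438) after knockdown and -2.06 ± 0.11 (SE, adjusted p = 5.78e-07) in PGCs, and PGCs minus knockdown cells gave -1.14. Dhcr7, the reductase of the last step to cholesterol, had 0.74, 0.56 and 0.54 in PGCs and 0.03, 0.62 and 0.44 in Max knockdown cells, against 1.25, 1.44 and 1.42 in control cells. Control cells were highest, and PGCs overlapped the knockdown, whose array 1 was lowest of all. The differences were -1.01 ± 0.15 (SE, adjusted p = 0.00107) after knockdown and -0.76 ± 0.15 (SE, adjusted p = 0.00157) in PGCs. PGCs minus knockdown cells gave 0.25 ± 0.15 (SE, adjusted p = 0.153), which passed without knockdown array 2 (0.38) and turned to -0.71 under spike-in scaling. Against knockdown cells, Cyp51 (-1.68), Ebp (-1.66), Msmo1 (-0.85) and Tm7sf2 (-0.68) were also called lower in PGCs.

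**Figure D3:**
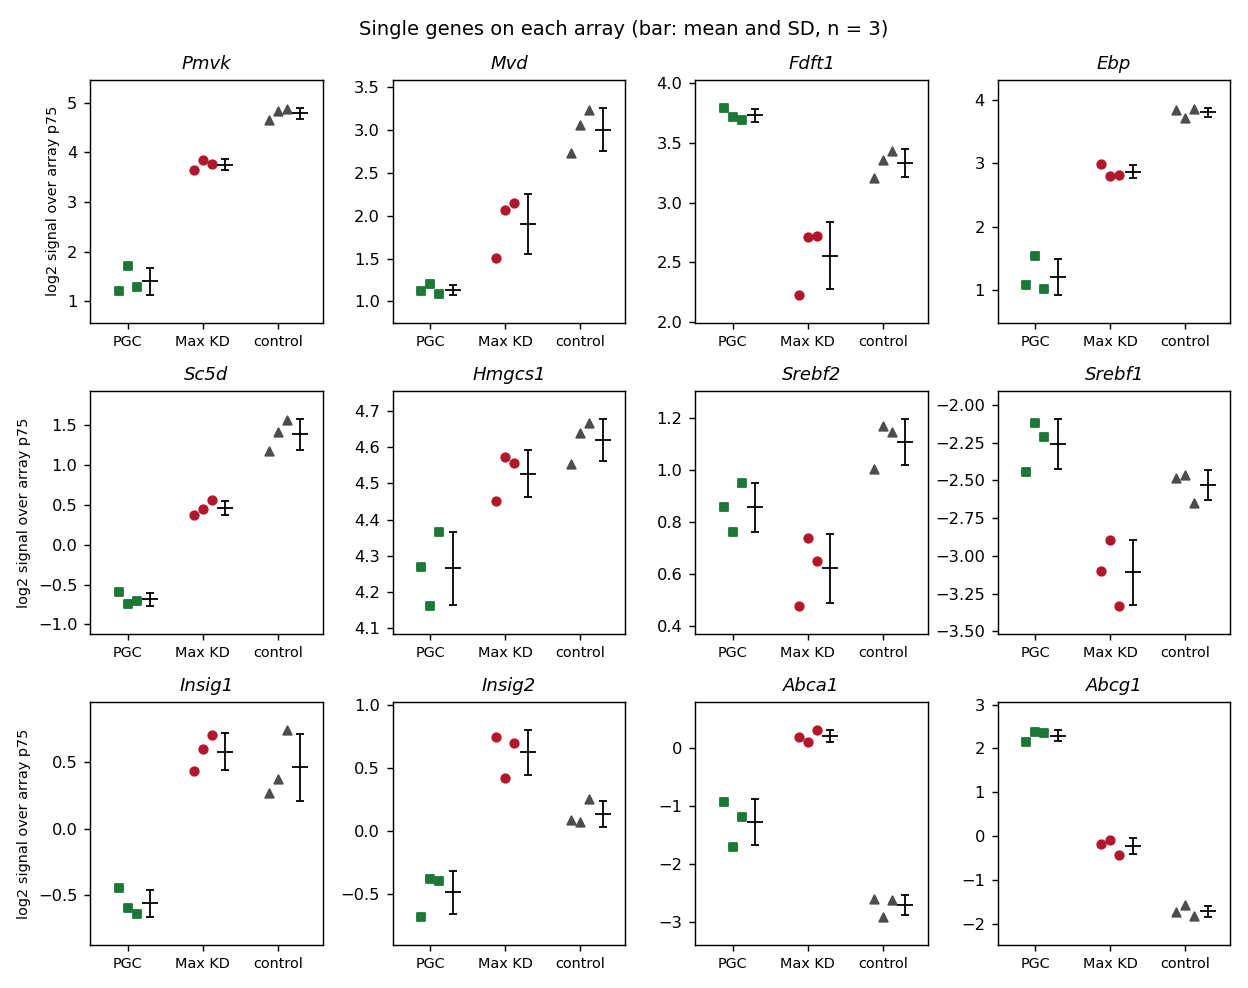
Log2 signal relative to the 75th percentile of the array for 12 genes on each of 9 arrays, PGC to the left, Max knockdown in the middle and control to the right, with the mean and SD of the 3 arrays as bars. Each panel has its own axis. Pmvk, Ebp and Sc5d are lowest in PGCs, Fdft1 and Srebf1 are lowest in the knockdown, and Abca1 is highest there. The PGC minus control difference of Fdft1, called higher, and that of Srebf1, which did not pass, change sign under spike-in scaling.

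Of the 5 genes that control the SREBPs, 2 fell and 1 rose after knockdown, and 3 fell and none rose in PGCs against control cells. Beside these few genes, 21.9% of all genes fell and 18.2% rose after knockdown, and 32.4% fell and 43.2% rose in PGCs. After knockdown both transcription factor genes fell and 1 of the 2 Insig genes rose, and in PGCs both Insig genes fell. Srebf2, the factor with the main role in sterol synthesis, had log2 signals of 0.86, 0.76 and 0.95 in PGCs and 0.48, 0.74 and 0.65 in Max knockdown cells, against 1.00, 1.17 and 1.15 in control cells. Control cells lay above the other groups without overlap, and knockdown cells lowest. The knockdown difference was -0.48 ± 0.10 (SE, adjusted p = 0.00526). That of PGCs, -0.25 ± 0.10 (SE, adjusted p = 0.0459), was near the threshold and was lost without control array 2 (-0.22), control array 3 (-0.23), PGC array 1 (-0.25) or PGC array 2 (-0.20), and with slide as a random block. PGCs minus knockdown cells gave 0.23 ± 0.10 (SE, adjusted p = 0.0579). It passed without knockdown array 2 (0.29) or PGC array 2 (0.28), and turned to -0.73 under spike-in scaling. Srebf1, whose product acts more on fatty acid genes, had -2.44, -2.12 and -2.21 in PGCs and -3.10, -2.90 and -3.33 in Max knockdown cells, against -2.48, -2.46 and -2.65 in control cells. Knockdown cells were lowest, and PGC array 1 lay just above the control cells. The knockdown difference was -0.58 ± 0.13 (SE, adjusted p = 0.0092). Normexp background correction turned it to 0.36, and to -0.33, without a call, once 13 spots that lay over 100 under their local background were left out. PGCs minus control cells gave 0.27 ± 0.13 (SE, adjusted p = 0.0929), which did not pass, passed without PGC array 1 (0.37), and turned to -0.68 under spike-in scaling. PGCs were above knockdown cells by 0.85 ± 0.13 (SE, adjusted p = 0.000386), which turned to -0.12 under spike-in scaling and -0.11 under normexp.

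Scap, the escort of the SREBPs, had log2 signals of 3.09, 3.03 and 3.05 in PGCs and 3.18, 3.25 and 3.50 in Max knockdown cells, against 2.87, 3.02 and 3.14 in control cells. Knockdown cells lay above control cells without overlap, by 0.30 ± 0.11 (SE, adjusted p = 0.0573), which did not pass. It passed without knockdown array 1 (0.37) or control array 3 (0.37), and with slide as a block, and normexp turned it to -0.06. PGCs minus control cells gave 0.05, which did not pass and turned below 0 under quantile normalization (-0.13), spike-in scaling (-0.90) and without control array 1 (-0.02). PGCs minus knockdown cells gave -0.25, which passed without knockdown array 1 (-0.32) and turned to 0.09 under normexp. Insig1, which holds Scap in the endoplasmic reticulum and is itself an SREBP target, had -0.45, -0.60 and -0.64 in PGCs and 0.43, 0.60 and 0.71 in Max knockdown cells, against 0.27, 0.38 and 0.74 in control cells. The ES groups overlapped, and PGCs lay below 0 on all 3 arrays. The knockdown difference, 0.12 ± 0.14 (SE, adjusted p = 0.54), did not pass, and its sign differed between the slides (0.20 within slide 1, -0.04 within slide 2). PGCs were 2.03-fold lower than control cells (-1.02 ± 0.14 (SE, adjusted p = 0.000148)) and 2.21-fold lower than knockdown cells (-1.14 ± 0.14 (SE, adjusted p = 7.47e-05)). Insig2, the related anchor, had -0.68, -0.39 and -0.40 in PGCs and 0.75, 0.42 and 0.70 in Max knockdown cells, against 0.08, 0.07 and 0.25 in control cells. All 3 groups were apart, with knockdown cells highest and PGCs lowest. It rose by a log2 difference of 0.49 ± 0.12 (SE, adjusted p = 0.0143) after knockdown, a call that was lost without control array 2 (0.46), and fell in PGCs, with -0.62 ± 0.12 (SE, adjusted p = 0.0017) against control cells and -1.11 ± 0.12 (SE, adjusted p = 4.71e-05) against knockdown cells.

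Of the 5 genes of sterol traffic, 3 fell and 1 rose after knockdown, and 3 fell and 2 rose in PGCs. The shares of all genes were 21.9% lower and 18.2% higher after knockdown, and 32.4% and 43.2% in PGCs. The exporter Abca1 was the strongest riser of the 28. Abca1, which passes cholesterol from the plasma membrane to lipoproteins, had log2 signals of -0.94, -1.71 and -1.19 in PGCs and 0.18, 0.11 and 0.31 in Max knockdown cells, against -2.61, -2.92 and -2.62 in control cells. The groups were wide apart, with knockdown cells highest, and the PGC arrays spread more than those of the ES groups. It was 7.54-fold higher after knockdown (2.91 ± 0.19 (SE, adjusted p = 1.97e-05)), rank 166 of 20443 genes from the top. In PGCs it was 2.71-fold higher than in control cells (1.44 ± 0.19 (SE, adjusted p = 0.000121)), with the direction kept but no call under spike-in scaling (0.48). PGCs lay below knockdown cells by -1.48 ± 0.19 (SE, adjusted p = 0.000102). Npc1, which exports cholesterol from late endosomes, had 0.27, 0.10 and 0.23 in PGCs and -0.50, -0.67 and -0.80 in Max knockdown cells, against -0.05, -0.08 and -0.07 in control cells. Knockdown cells were lowest and PGCs highest, without overlap. It fell by a log2 difference of -0.59 ± 0.10 (SE, adjusted p = 0.00167) after knockdown. In PGCs it was higher than in control cells by 0.26 ± 0.10 (SE, adjusted p = 0.0335), which spike-in scaling turned to -0.69. That call was lost without control array 1 (0.27), 2 (0.26) or 3 (0.26), and without PGC array 1 (0.23) or 3 (0.25). PGCs were above knockdown cells by 0.86 ± 0.10 (SE, adjusted p = 4.77e-05), which spike-in scaling turned to -0.11. Npc2, its soluble partner in the lysosome, had 1.83, 1.93 and 1.82 in PGCs and 2.31, 2.36 and 2.31 in Max knockdown cells, against 2.93, 2.93 and 2.99 in control cells. Unlike Npc1 it was lowest in PGCs, and no groups overlapped. The differences were -0.62 ± 0.07 (SE, adjusted p = 0.00035) after knockdown, -1.09 ± 0.07 (SE, adjusted p = 1.87e-06) in PGCs against control cells and -0.46 against knockdown cells.

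Stard4, a soluble sterol carrier, had 0.02, 0.07 and 0.06 in PGCs and 0.46, 0.50 and 0.87 in Max knockdown cells, against 0.67, 0.63 and 0.84 in control cells. The ES groups overlapped and PGCs lay below both. The knockdown difference, -0.10 ± 0.12 (SE, adjusted p = 0.546), did not pass and was 0.03 within slide 2. PGCs differed by -0.66 ± 0.12 (SE, adjusted p = 0.000908) from control cells and by -0.56 from knockdown cells. Lrp8, a lipoprotein receptor, was dim, with log2 signals of -7.95, -7.16 and -7.02 in PGCs and -4.73, -4.64 and -4.51 in Max knockdown cells, against -3.69, -3.86 and -3.47 in control cells. It was not well above background on any PGC array, so PGC values are only a bound, and knockdown cells lay below control cells without overlap. The knockdown difference was -0.95 ± 0.23 (SE, adjusted p = 0.0108). Normexp background correction turned it to 0.57, and to -0.38, without a call, once the spots far under their background were left out. PGCs were at least 2.82-fold lower than control cells and at least 1.45-fold lower than knockdown cells. A bound takes, on each array, the higher of the probe's own signal and the lowest signal among probes well above background. Lrp8 was tested only through the ES groups, where it is higher, so its calls in PGCs are not independent of the filter. Among genes well above background on all 9 arrays, 27 members were tested. In PGCs 21 of them were lower and 4 higher than in control cells, and 18 lower and 6 higher than in knockdown cells.

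For 10 members the array held a second probe, which was not used in the fit of genes. Most gave the same direction and call in the knockdown: Pmvk -1.06, Mvk -0.46, Tm7sf2 -0.81, Srebf2 -0.59, Hsd17b7 0.41 and Insig2 0.71, with Nsdhl at -0.31 and again not called. Stard4 differed, since its second probe was called lower after knockdown (-0.61). In PGCs against knockdown cells that probe gave 0.15, where the first was called lower. The second probe of Lrp8 was called lower in knockdown cells and in PGCs than in control cells, and was not well above background on any knockdown or PGC array, so no size is given. That of Fdft1 lay well above background on only 1 PGC array and 1 control array, and was not tested. In PGCs against control cells the second probe of Hsd17b7 gave a smaller rise (0.34) than the first, and that of Nsdhl (-0.30) was just outside the threshold, where the first was called lower. Against knockdown cells the second probes of Hsd17b7 (-0.07) and Mvk (-0.14) were not called, where the first ones were. The second probe of Pmvk was -3.61 against control cells, close to that of the first. In PGCs that of Srebf2 was called lower than in control cells (-0.45), where the call of the first was near the threshold.

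The neighbouring lipid pathways were described in the same fit. Of 15 genes of fatty acid synthesis and other SREBP targets, 11 fell and 1 rose after knockdown (median log2 difference -0.63), and all 15 fell in PGCs (median -1.45, with all 15 lower under spike-in scaling too), 2 of them to levels not well above background on any PGC array. Fads2, a fatty acid desaturase, had log2 signals of -2.36, -2.09 and -2.27 in PGCs and -2.47, -2.28 and -2.27 in Max knockdown cells, against -1.17, -1.05 and -0.86 in control cells. PGCs and knockdown cells overlapped below the control cells. Its differences were -1.31 ± 0.12 (SE, adjusted p = 8.64e-05) after knockdown and -1.21 in PGCs. Lpin1, a phosphatidate phosphatase, differed by -1.43 ± 0.19 (SE, adjusted p = 0.000596) after knockdown and -1.45 in PGCs. Scd1, which makes monounsaturated fatty acids, had -5.58, -4.86 and -4.79 in PGCs and 1.06, 1.49 and 1.66 in Max knockdown cells, against 2.04, 2.22 and 2.24 in control cells. It was not well above background on any PGC array, at least 151-fold below control cells, and was tested only through the ES groups, where it is higher. Fads1, another desaturase, differed by -2.86 ± 0.12 (SE, adjusted p = 1.28e-07) in PGCs and -0.86 after knockdown. The exception was Acss2, which makes acetyl-CoA from acetate: it rose after knockdown (0.36 ± 0.10 (SE, adjusted p = 0.0241)) and fell in PGCs (-1.09). It is named after its values were seen.

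Of 12 genes of other branches that use isoprenoids 3 rose and 2 fell after knockdown (median -0.01), and 4 rose and 3 fell in PGCs (median 0.11, and -0.85 with no rise under spike-in scaling). The genes that fell after knockdown were Rabggtb (-0.96 ± 0.07 (SE, adjusted p = 4.58e-05)), a subunit of the enzyme that prenylates Rab proteins, and Nus1 (-0.52 ± 0.09 (SE, adjusted p = 0.00274)), a subunit of the prenyltransferase that makes dolichol. In PGCs Coq2, of ubiquinone synthesis, rose by 1.62 ± 0.08 (SE, adjusted p = 4.41e-07) and Dhdds, the partner of Nus1, by 1.47 ± 0.09 (SE, adjusted p = 8.54e-07). Of 11 genes that process or degrade the SREBPs or act in sterol-controlled degradation, 4 rose and 2 fell after knockdown (median -0.00401, and 0.01 under spike-in scaling), and 8 rose and 2 fell in PGCs (median 0.77, and -0.18 with no rise under spike-in scaling). Mbtps2, the protease that makes the second of the cuts that free the SREBPs, fell after knockdown (-0.93 ± 0.15 (SE, adjusted p = 0.00162)) and in PGCs (-1.49). Fbxw7, a ubiquitin ligase subunit that marks nuclear SREBPs for destruction, rose in both (0.71 ± 0.13 (SE, adjusted p = 0.00264) and 1.36). Erlin2, of the degradation machinery in the endoplasmic reticulum, was higher in PGCs by 1.19 ± 0.09 (SE, adjusted p = 5.01e-06).

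Of 21 genes of the oxysterol response and of sterol storage, 20 were tested; 4 rose and 6 fell after knockdown (median -0.20), and 6 rose and 10 fell in PGCs (median -0.39, with 1 rise and 10 falls under spike-in scaling). None of these 4 lists had a call in the knockdown under spike-in scaling without a slide term. Abcg1, an exporter and liver X receptor target like Abca1, had log2 signals of 2.15, 2.37 and 2.36 in PGCs and -0.17, -0.09 and -0.44 in Max knockdown cells, against -1.73, -1.58 and -1.83 in control cells. The groups were wide apart, and here PGCs, not knockdown cells, were highest. It was 2.79-fold higher after knockdown (1.48 ± 0.12 (SE, adjusted p = 6.53e-05)), and 16.1-fold higher in PGCs than in control cells (4.01 ± 0.12 (SE, adjusted p = 2.84e-08)). Lipa, the lysosomal acid lipase that frees cholesterol from its esters, had -0.16, -0.29 and -0.16 in PGCs and -2.59, -2.64 and -2.54 in Max knockdown cells, against -1.77, -1.68 and -1.43 in control cells. It fell after knockdown (-0.96 ± 0.10 (SE, adjusted p = 0.000227)) and rose in PGCs (1.43 ± 0.10 (SE, adjusted p = 2.99e-06)). Lrp1, a lipoprotein receptor, fell in PGCs (-3.07 ± 0.10 (SE, adjusted p = 3.91e-08)) and differed by 0.14 after knockdown, which did not pass. The shares of these lists are set beside 18.2% up and 21.9% down for all genes in the knockdown, and 43.2% and 32.4% in PGCs.

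**Figure D4:**
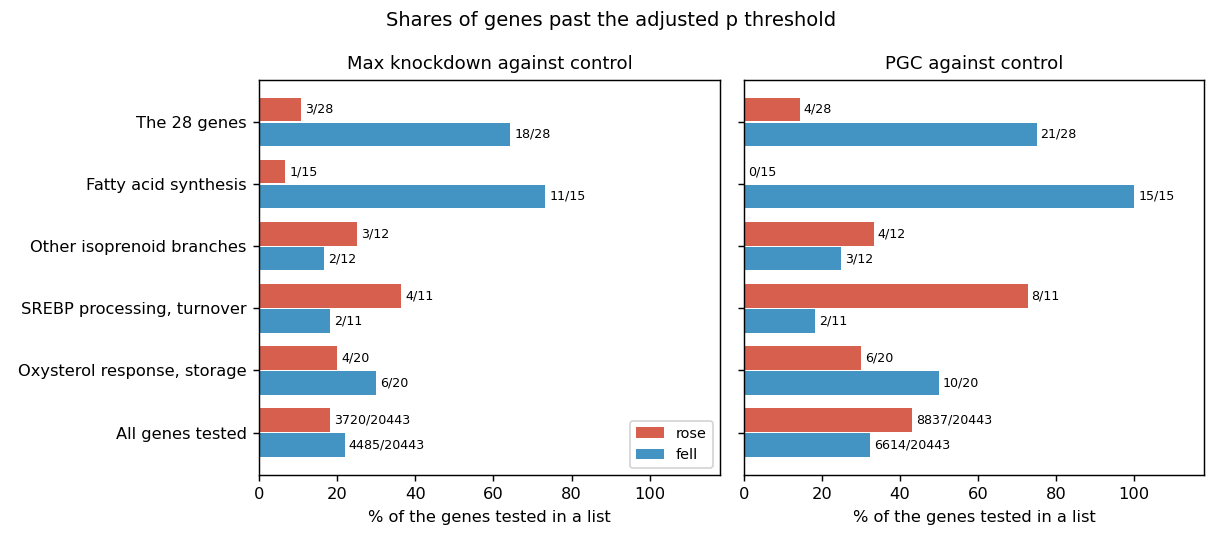
Share of the tested genes of each list that were called higher (red) or lower (blue), in % of the genes tested, for Max knockdown against control and for PGC against control, with the counts at the bar ends. The 28 genes (64.3% and 75% lower) and the fatty acid genes (73.3% and 100% lower) have longer blue bars than all genes (21.9% and 32.4%), and those of the isoprenoid branches are at 16.7% and 25%. Under spike-in scaling 1 gene of the lists, Abcg1, is still called higher in PGCs.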

How the data were processed

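Each array was assigned to its group by its title, and the design text states that the replicates were biological. The labels do not say what the replicate numbers stand for. The deposited scanner files hold the Cy3 intensity of each spot, extracted with Feature Extraction 10.7.3.1 with the background subtracted and the signal detrended, per the file headers, which give mm9 as the build. The deposited value table holds the authors' log2 values. Its columns followed the same direction as the scanner values (r across probes from 0.99994 to 0.999995), its column medians were -0.02, -0.12, -0.07, 0, 0, 0, 0, 0.34 and 0.39, and its scale and centring are not stated.

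From the scanner files, spots of a probe were averaged after control spots and 65 probes with an outlier flag were left out, and the 75th percentile of an array was taken off its log2 values. The RefSeq accession named 26012 of 39364 probes through a gene table of GRCm38.p6, used for names, and the others kept the name in the files. A gene was represented by its probe with the highest mean. Differences were fitted with limma 3.58.1 in R 4.3.3 (lmFit and eBayes) over all 9 arrays and all 20443 genes tested, with Benjamini-Hochberg adjustment, and the code was tested on simulated data. An exact permutation test of 3 against 3 arrays cannot go below p = 0.1, so none is given. The mean spot signal is not in the columns used here, so normexp (offset 50) was run on median signals. The other settings were quantile normalization, scaling on 7 spike-in probes, other filters on dim genes, the mean of a gene's probes, the deposited table, slide and replicate number as blocks, fits within a slide or of the compared groups alone, and each array left out in turn.

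Values on every array are given for members called with a change of at least 1.5-fold in a comparison, and for Insig1, Insig2, Scap, Srebf1, Srebf2, Hmgcs1 and Sqle. Of each list outside the members, the 2 genes with the smallest p in each comparison with control cells are named, except 1 that is not reported here. The members, lists and tests were chosen with earlier results of these data known, so no list is independent support. For Insl3, a marker of steroid-making cells, no probe was matched.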

Additional observations from a re-analysis of the deposited data

How the results depend on the processing

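With 3 arrays a group, small differences rest on single arrays. Differences of Lrp8 and Srebf1, and of brighter members such as Hmgcs1 and Scap, depend on the background correction. Normexp on median signals was disturbed by 13 spots of knockdown arrays 1 and 2 that lay over 100 under their local background. It called 884 genes after knockdown (63.9% of them higher, against 45.3% of 8205 in the reported fit), with 1 member up and 2 down, 6014 in PGCs against control cells, with 2 up and 12 down, and 7195 in PGCs against knockdown cells, with 2 up and 8 down. Without those spots (chosen after seeing the data) it called 6919, 14427 and 14329 genes, and the median of the members in the knockdown was -0.47, with 2 members up in PGCs against control cells. Spike-in scaling called 1001 genes after knockdown (71.2% higher), 8622 in PGCs against control cells (1160 of them higher, against 57.2% of 15451) and 8255 in PGCs against knockdown cells (12.2% higher, against 58.8%). The members called were 1 up and 0 down, 0 up and 22 down, and 0 up and 20 down, and the medians in the comparisons with PGCs were -1.70 and -1.41. With slide as a block, also chosen after seeing the data, it called 6882 genes after knockdown. Within slide 1 alone, 1 member rose, and slide 2 has 1 array per group and gives no test. Without the filter on dim genes 2 members rose in PGCs against control cells. Quantile normalization moved the median of the members in PGCs against knockdown cells to -0.57.

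Leaving out 1 array gave 2 to 3 members up in PGCs against control cells, and medians of -0.57 to -0.39 in PGCs against knockdown cells. The members called down were 18 in the knockdown whichever array was left out, and 20 or 21 in PGCs against control cells. Against knockdown cells they ran from 14 to 20.

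Signs that turned were those of Hmgcs1 in the knockdown (0.028, quantile), Insig1 (-0.038) and Stard4 (0.029) within slide 2, and Scap (-0.062), Srebf1 (0.36) and Lrp8 (0.57) under normexp. In PGCs against control cells they were Scap (-0.13, quantile, and -0.020 without control array 1, where leaving out another array gave up to 0.12) and, under spike-in scaling, Fdft1 (-0.55), Hsd17b7 (-0.10), Scap (-0.90), Srebf1 (-0.68) and Npc1 (-0.69). In PGCs against knockdown cells the sign turned for Sqle under quantile normalization (-0.063). Under normexp they were Hmgcs1 (0.099), Mvk (0.012), Idi1 (0.020), Scap (0.089) and Srebf1 (-0.11), and under spike-in scaling Fdps (-0.45), Sqle (-0.81), Hsd17b7 (-0.51), Dhcr7 (-0.71), Srebf1 (-0.12), Srebf2 (-0.73) and Npc1 (-0.11). The cause was not tested.

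The groups share replicate numbers, but only 2 numbers are common to knockdown and control cells. The deviations of same-numbered knockdown and control arrays, all on slide 1, correlated at r = 0.37 and 0.39. Pairs of different number on slide 1 gave -0.03 (control array 1, knockdown array 2) and -0.07 (control array 2, knockdown array 1). Those of knockdown array 4 and control array 3, of different number on slide 2, correlated at 0.51. PGC arrays did not deviate with ES arrays of their number. The reported fit has no term for such pairs. The replicate block called 7423 genes with 3 members up and 17 down in the knockdown, 14825 with 3 up and 20 down in PGCs against control cells, and 13409 with 5 up and 12 down in PGCs against knockdown cells.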
